A study of Mus musculus with 4 samples.

Results

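Contractile smooth muscle cells of mouse inguinal fat are described here from single-cell RNA counts. Members were chosen by their own UMI counts: a barcode was a member when it held at least 300 genes, at least 500 unique molecular identifiers (UMIs, each standing for 1 captured transcript) and at most 10% UMIs of mitochondrial genes. It also needed UMIs of at least 3 of the 9 mural genes Rgs5, Acta2, Myh11, Tagln, Notch3, Cspg4, Des, Higd1b and Kcnj8, and of at least 2 of the 4 contractile genes Myh11, Cnn1, Actg2 and Synpo2. A UMI of Pdgfra (stromal progenitors), Ptprc (immune cells) or Pecam1 (endothelium) excluded it. Of 14931 cells kept in 4 libraries, 1046 met the rule. The Lin- control library held 274, the Lin- iAdFASNKO library 755, the Lin+ control library 8 and the Lin+ iAdFASNKO library 9.

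The tissue was the stromal vascular fraction of inguinal white fat, the cells that remain after digestion when floating adipocytes are gone. Cells came from 7 control mice (C57BL/6) and 8 iAdFASNKO mice. That name is not explained in the labels; it is used for a line in which Fasn, the fatty acid synthase gene, can be deleted in adipocytes by induction. No promoter, inducing agent, age or sex is given in the sources used here. Magnetic beads split the pooled cells of each genotype into lineage-positive (Lin+, mostly immune) and remaining (Lin-) cells, so each genotype and fraction was 1 droplet library. No spread between mice can be measured, and genotype, pool, preparation and library cannot be told apart. All results below are from the Lin- libraries unless stated, with no p-value, and every interval is a 95% interval that covers counting error only.

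Smooth muscle cells wrap arteries, arterioles and veins and set their diameter. They contract when calcium and calmodulin activate myosin light chain kinase, which phosphorylates the light chains of smooth muscle myosin, and relax when cyclic nucleotide signalling lowers calcium and reactivates myosin phosphatase. Serum response factor and its cofactor myocardin drive their contractile genes. Pericytes, the mural cells of capillaries, share many genes with them but carry less of the contractile apparatus. In fat, mural cells line the vessels that feed adipocytes, and they lie close to the progenitors that give rise to new adipocytes.

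The genes that chose the cells were present as their label requires, and they are given as a description. Cells were thinned to 2000 UMIs each to compare shares, which left 267 control and 705 iAdFASNKO members and left out 7 and 50 shallower ones. Myh11, smooth muscle myosin heavy chain, was then detected in 98.1% of control and 99.6% of iAdFASNKO members, and in 99.6% and 100% before thinning. Acta2, smooth muscle actin, was detected in 100% and 99.7%. Synpo2, an actin-binding Z-disc protein, was detected in 51.3% and 72.1% after thinning, against 96.7% and 95.4% before it. Cnn1, calponin, which binds actin and restrains myosin, reached 28.8% and 38.0%, and Actg2, the gamma smooth muscle actin, 12% and 7.94%. Cells that should lack these genes gave a background for these shares. In Ptprc+ cells, whose median depth was 3367 UMIs in control and 1697 in iAdFASNKO, Acta2 was detected in 10.3% and 13.2% and Myh11 in 3.45% and 10.5% after the same thinning.

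**Figure D1:**
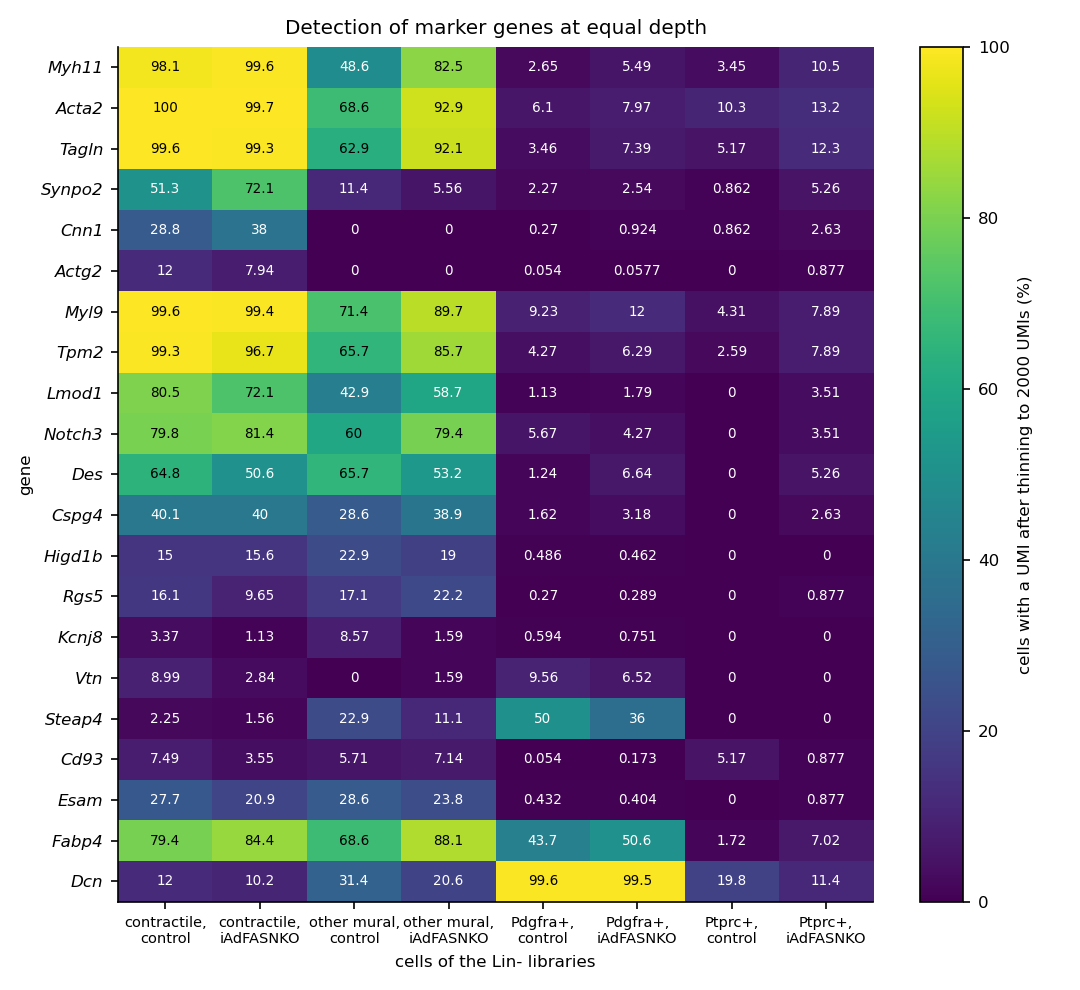
Share of cells with at least 1 UMI of each gene (color, %) after thinning to 2000 UMIs, for contractile cells, other mural cells, Pdgfra+ cells and Ptprc+ cells of each Lin- library. Cnn1, Actg2 and Synpo2 set contractile cells apart from other mural cells by construction of the rule, and Acta2 ran from 6.10% of Pdgfra+ control cells to 100% of control members.

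Most members were chosen through Myh11 and Synpo2 together. These were the only 2 of the 4 contractile genes detected in 51.5% of control and 46.1% of iAdFASNKO members, Myh11, Cnn1 and Synpo2 in 27.7% and 35.4%, and all 4 in 15.3% and 12.8%. The threshold cut a continuous range just below its most common value. Exactly 2 contractile genes were detected in 45.9% of control and 41.6% of iAdFASNKO cells that passed the mural part of the rule. Just inside it, with exactly 2 contractile genes, lay 150 control cells (median 7671 UMIs) and 382 iAdFASNKO cells (3913 UMIs). Just outside, with exactly 1, lay 43 control cells (5615 UMIs) and 150 iAdFASNKO cells (3175 UMIs).

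Contractile genes are classical targets of serum response factor, which binds the CArG box, so their promoters were searched for that box. The motif is its own reverse complement, so 1 strand covers both. Of the 26 genes of a contractile apparatus list, 22 had a promoter in the RefSeq table (GRCm38.p6, 250 bases before to 50 after each start), and 3 of the 22 (13.6%) held a CArG box, against 1.81% of 27025 genes. Actg2, Myh11 and Tagln were among the genes without an entry. A match is a run of letters and not a bound site. The boxes below are shown because their genes were among the contractile genes measured in the members, each with the position of its first base relative to the start of transcription. Capitals mark the box.
Myl9, position -161: CCTAATAAGG
Myl6, position -50: CCTTATATGG
Vcl, position -227: CCTTATAAGG
Myl9, the regulatory light chain that the kinase phosphorylates, had its box in this upstream stretch on the plus strand of chromosome 2, chr2:156775214-156775463.
Myl9 promoter: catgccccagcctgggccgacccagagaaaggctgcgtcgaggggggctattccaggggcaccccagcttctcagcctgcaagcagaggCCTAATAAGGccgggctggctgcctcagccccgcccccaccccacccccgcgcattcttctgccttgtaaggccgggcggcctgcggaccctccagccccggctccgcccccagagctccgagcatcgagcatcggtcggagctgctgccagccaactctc
Their levels in members were close between genotypes. Myl9 had 5812 CPM (UMIs scaled to a common library total) in control and 5122 in iAdFASNKO members, which is a ratio of 0.881 (0.862 to 0.901). Myl6, the essential light chain, had 5534 and 7532 CPM, a ratio of 1.36 (1.33 to 1.39). Vcl, vinculin, which ties actin to the membrane, had 330 and 336 CPM, a ratio of 1.02 (0.929 to 1.12).

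The libraries differed in depth and in mitochondrial content, which bears on every comparison between genotypes. Median UMIs per kept cell were 9138 in the Lin- control and 4205.5 in the Lin- iAdFASNKO library. Members had medians of 8073.5 and 4472 UMIs and of 2758 and 1805 genes. Their summed UMIs were 2321365 and 3600896. With the rule applied to cells thinned to 2000 UMIs, 183 of 2801 control cells (6.53%) and 611 of 3442 iAdFASNKO cells (17.8%) were members, so the difference in shares was not smaller at equal depth. Members were 83.8% of control and 82.2% of iAdFASNKO cells that passed the mural part of the rule, and 58.5% and 68.8% at equal depth. Scrublet, a doublet caller, marked 2 and 5 members, and from 59 to 110 barcode sequences were shared between pairs of libraries, with 1 sequence shared by members of 2 libraries.

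Markers of other cell types were low in members, with exceptions. The immune markers Ptprc, Tyrobp and Lyz2 were at 0 in both libraries, and the 12 immune markers summed to 13.8 CPM in control and 10.3 in iAdFASNKO members. The adipocyte genes Adipoq, Cidec, Lep and Cfd were at 0 in both, though Plin1, a lipid droplet coat protein, was found in 9.49% and 4.64% of cells. The 10 adipocyte markers were not low as a sum, at 2801 and 4129 CPM, most of it Fabp4. The most widespread of them was found in 87.6% and 88.5% of cells. Mammary myoepithelial cells also contract and carry Acta2 and Myh11, so their keratins were checked: the 12 epithelial and myoepithelial markers summed to 7.75 and 16.9 CPM, with Krt5 and Krt14 at 0 in control members and each in 0.265% of iAdFASNKO members. Of the endothelial markers, Pecam1 was at 0 by the rule and Cdh5 had 0 and 6 UMIs, but Esam was found in 71.5% and 39.2% of cells before thinning, and in 27.7% and 20.9% after it. The 12 adipose progenitor markers, some of which mural cells share, summed to 1959.6 and 1482 CPM, with Pdgfra at 0 by the rule. Members were also checked for at least 2 markers of 1 of 6 types: mammary, endothelial, immune, Schwann, skeletal muscle and adipocyte. These were found in 88 of 274 control and 121 of 755 iAdFASNKO members. Genes of the rule and Fabp4, Pmp22, Cd74 and Lyz2 were not counted there. At least 2 adipose progenitor markers, a list outside those 6, were found in 240 control and 509 iAdFASNKO members.

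The myelin gene Mbp, looked at after its values were seen, rested on few cells: it had 2 UMIs in control and 76 in iAdFASNKO members, and 48 of the 76 lay in 1 cell.

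The share of contractile cells followed the mitochondrial limit. With the limit of 10%, members were 8.83% of the control library (274 of 3103 cells, interval 7.85 to 9.88) and 17.1% of the iAdFASNKO library (755 of 4412, 16 to 18.3). The ratio of those shares was 1.94. Without any mitochondrial limit the shares were 16.7% (601 of 3605) and 19.2% (905 of 4706), a ratio of 1.15. The limit of 10% therefore removed 327 of 601 contractile control barcodes (54.4%) but 150 of 905 iAdFASNKO barcodes (16.6%). A limit of 5% left 19 control members (0.802%) and 133 iAdFASNKO members (4.08%), and a limit of 15% left 15.7% and 18.9%.

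The loss was also large in the other mural cells of the same libraries, and smaller in progenitors and endothelial cells. Of mural barcodes that failed only the contractile threshold, the limit removed 33 of 86 in control (38.4%) and 24 of 188 in iAdFASNKO (12.8%). It removed 1.85% of control and 0.478% of iAdFASNKO Pdgfra+ barcodes, and 11.7% and 3.68% of Pecam1+ barcodes. The median mitochondrial share of contractile barcodes without a limit was 10.3% in control and 7.61% in iAdFASNKO. The limit thus lay next to the control median: 70 control barcodes lay between 9% and 10% and 85 between 10% and 11%, against 108 and 47 iAdFASNKO barcodes. In a fraction of cells, more contractile cells and fewer cells of other kinds cannot be told apart.

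**Figure D2:**
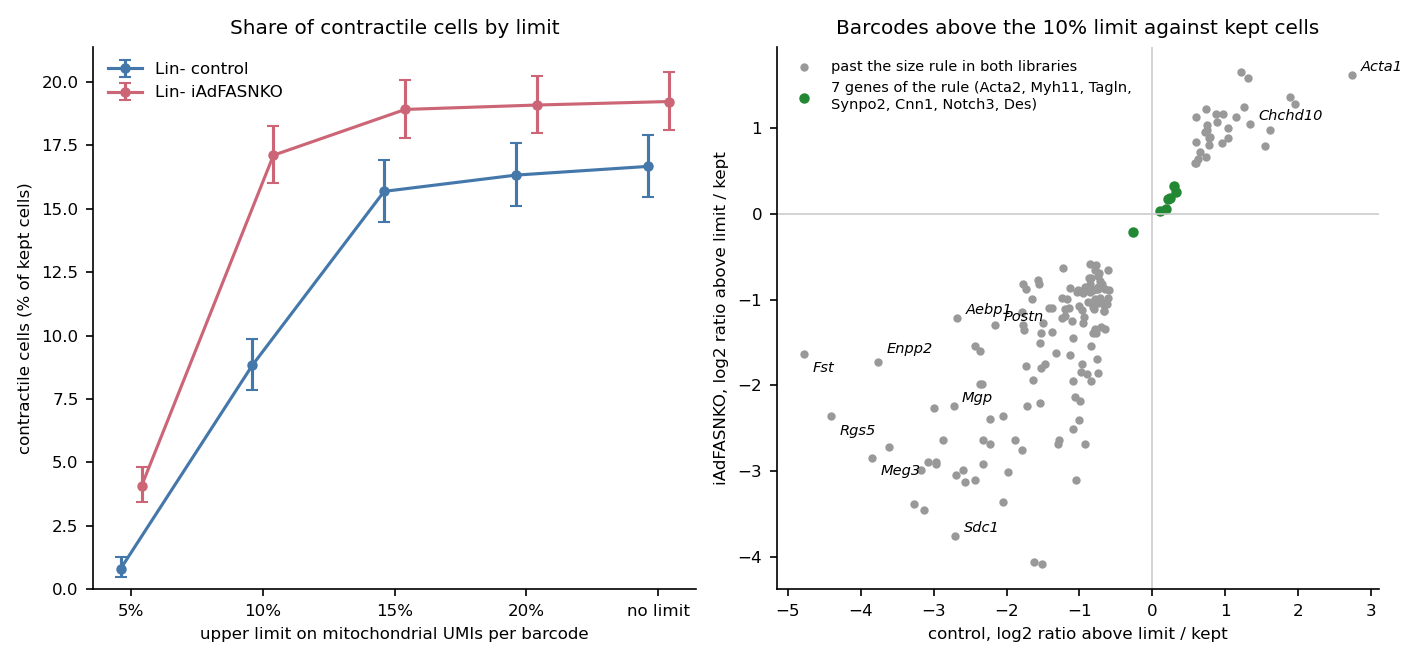
Left: contractile cells as a share of kept Lin- cells (%, y axis) at each upper limit on mitochondrial UMIs (x axis), with exact 95% intervals, for control and iAdFASNKO. Right: log2 CPM ratio of contractile barcodes above the 10% limit over kept ones, control on the x axis and iAdFASNKO on the y axis, where Rgs5, Fst and Enpp2 lie low in both libraries and Acta1 and Chchd10 lie high; genes with 0 UMIs on 1 side are not drawn.

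Contractile barcodes above the limit were compared with the kept ones in each library. Depth was alike, with median UMIs of 7976 above and 8073.5 below the limit in control and 4209.5 and 4472 in iAdFASNKO. Mitochondrial UMIs were left out of the totals, and 9414 genes had enough UMIs in both libraries. A gene was called past the size rule, used throughout, when it had at least 20 UMIs over both groups compared, differed by at least 1.5 times in either direction, and had an interval that left out 1. By that rule 30 genes (0.319%) were higher above the limit in both libraries, 157 (1.67%) were lower in both, and 8 were called in opposite directions. Of the 26 genes of the contractile apparatus list 0 were called in both libraries. Of 26 nuclear genes of oxidative phosphorylation 1, Cox7a1, was higher in both.

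Of 12 pericyte genes 4 were lower above the limit in both libraries (Rgs5, Vtn, Abcc9 and Postn) and 0 higher, while Cspg4 (ratios of 1.31 and 1.23) and Higd1b (0.771 and 1.08) were not called. Of 14 measured genes of a fibrillar collagen and modulated smooth muscle list, 5 were lower in both (Col1a2, Col3a1, Col5a2, Col6a1 and Mgp), against 1.67% of all genes. Rgs5, a regulator of G protein signalling that marks pericytes, had 21.4 CPM above and 453 CPM below the limit in control, a ratio of 0.0471 (0.0349 to 0.0625). In iAdFASNKO the ratio was 0.196 (0.117 to 0.308). Among the kept control cells, 1 cell held 266 of the 971 Rgs5 UMIs. Enpp2, the enzyme autotaxin, had ratios of 0.0735 and 0.303, and Fst, the activin antagonist follistatin, 0.0364 and 0.323. H2-M9, a nonclassical histocompatibility gene, had 10 UMIs above and 328 below the limit in control, and 0 and 401 in iAdFASNKO. Meg3, a long noncoding RNA, had ratios of 0.0695 and 0.139, and Mgp, matrix Gla protein, an inhibitor of vessel calcification, 0.151 and 0.212.

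Fewer genes were higher above the limit. Acta1, the skeletal muscle actin, had a ratio of 6.68 (3.32 to 15.2) in control and 3.06 (1.57 to 5.78) in iAdFASNKO. Chchd10, a mitochondrial protein of the intermembrane space, had ratios of 2.54 and 2.07. Ptger3, a contractile receptor for prostaglandin E2, had ratios of 2.04 and 2.01, and Adcy5, an adenylate cyclase, 1.51 and 1.51. Among the contractile genes Acta2 had ratios of 1.16 and 1.12, Myh11 1.25 and 1.19 and Cnn1 1.23 and 1.26, while Actg2 was lower above the limit in control (0.512) and not past the rule in iAdFASNKO (0.862). Since the limit removed a larger part of the control members, the comparisons of genotypes below give the called genes, or the count of their list, without it as well.

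The genotypes were compared over 10340 genes with at least 20 UMIs in members. In iAdFASNKO members 218 genes (2.11%) were higher and 732 (7.08%) lower than in control members, together 9.19%. The median log2 ratio of all genes was -0.09. Without the mitochondrial limit, 283 genes (2.6%) were higher and 493 (4.53%) lower of 10877, together 7.13%. Of the genes higher with the limit, 127 were also higher without it (58.3% of the former and 44.9% of the latter list), and of those lower, 325 (44.4% and 65.9%). None was called in opposite directions.

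Of the 12 genes named as higher in iAdFASNKO members, 6 were noncoding RNAs or copies of ribosomal protein genes (Bc1, Snhg9, Atcayos, Rpl10-ps3, Rpl36a-ps1 and Rps27rt), and those 6 had ratios above 1.5 in the Pdgfra+ progenitors as well. Bc1, a short noncoding RNA best known from neurons, had 122 CPM (108 to 137) in control members and 973 (941 to 1006) in those of iAdFASNKO, a ratio of 7.98 (7.07 to 9.04), which was 6.87 without the limit. In Pdgfra+ cells of the same libraries its ratio was 6.51. Rpl10-ps3, a processed copy of a ribosomal protein gene, had a ratio of 2.91 in members (3.09 without the limit) and 3.45 in Pdgfra+ cells, and Rpl36a-ps1 3.34 (3.82) and 3.75. Rpl10, the gene that Rpl10-ps3 copies, lay lower in iAdFASNKO members, at 1159 CPM in control and 586 in iAdFASNKO, which is a ratio of 0.505 (0.477 to 0.535) and 0.547 without the limit, and was looked at after its values were seen. Reads of near-identical copies can be split or dropped in counting, so these genes are uncertain.

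Wdr89, of unsettled function and with similar copies, had 91.3 and 320 CPM, a ratio of 3.50, against 3.41 in Pdgfra+ cells. Rps27rt, a ribosomal protein retrogene, had a ratio of 2.31 (2.47 in Pdgfra+ cells), and Usp50, of the ubiquitin peptidase family, 2.13 (1.6). Snhg9, a small nucleolar RNA host gene, had 2.64 (2.29), and Atcayos, an antisense transcript, 1.99 (7.64, on 4 and 17 UMIs). Antisense and overlapping transcripts cannot be told apart where counting ignores strand, which is not given in the sources used here. Kbtbd3, of the kelch repeat family, had 2.71 (1.41). These 6 genes kept a ratio of at least 1.78 without the mitochondrial limit. In mural cells that failed only the contractile threshold, Wdr89 had 1.65 and was past the rule. Rps27rt (1.14, 0.891 to 1.45), Usp50 (1.07, 0.744 to 1.55), Snhg9 (1.72) and Atcayos (1.81) were not called there. Kbtbd3 had too few UMIs in them.

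A few further genes were higher with few UMIs. Col14a1, a collagen that binds fibrils, had 13 UMIs in control and 65 in iAdFASNKO members, which is a ratio of 3.22 (1.76 to 6.37), and 4.91 without the limit. Efhd1, a calcium-binding mitochondrial protein, had 19 and 75 UMIs, a ratio of 2.54 (1.52 to 4.46), and 1.6 without it. Sorl1, a sorting receptor, had 22 and 97 UMIs, a ratio of 2.84 (1.77 to 4.74), but 1.38 without it, which is not past the rule. In Pdgfra+ cells the ratios were 2.32 for Col14a1, 4.74 for Efhd1 and 1.13 for Sorl1.

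**Figure D3:**
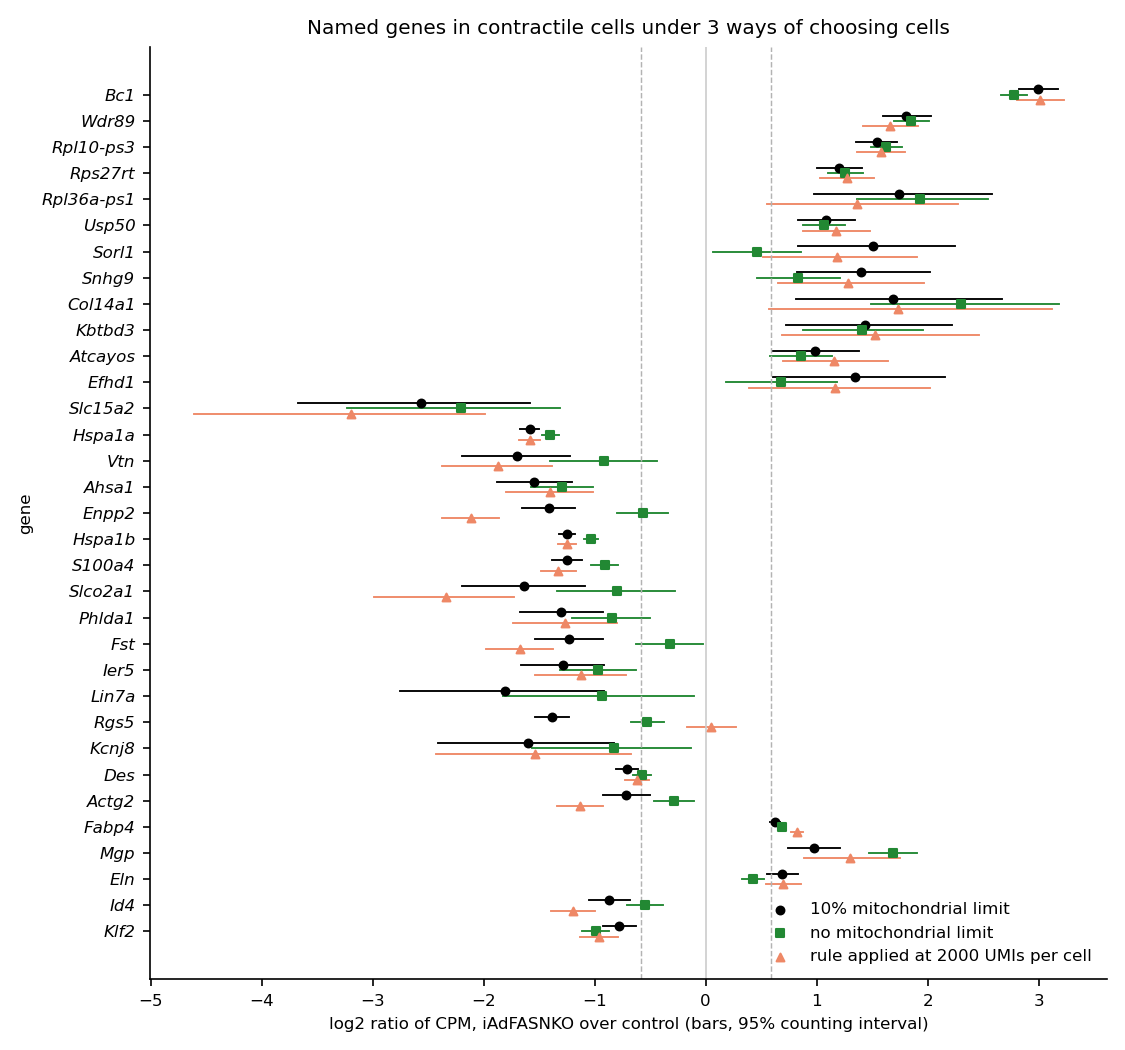
Log2 ratio, iAdFASNKO over control, of the named genes in contractile cells (x axis, log2 scale) under the 10% mitochondrial limit, without a limit, and with the rule applied to cells thinned to 2000 UMIs, with 95% counting intervals as bars. Bc1 lies near 3 and Hspa1a below -1 in each setting, while Enpp2 and Fst move toward 0 without the limit.

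Heat shock genes and a cochaperone were among the 12 genes named as lower. Hspa1a, an inducible HSP70 chaperone, had 1405 CPM (1357 to 1454) in control and 469 (447 to 492) in iAdFASNKO members, which is a ratio of 0.334 (0.315 to 0.354), and 0.379 without the limit. It was found in 87.6% and 63.1% of cells. Hspa1b, its near-identical neighbour, had 1626 and 685 CPM, a ratio of 0.422, and 0.489 without the limit. Reads of the pair may be split in counting. Ahsa1, which activates the chaperone HSP90, had a ratio of 0.343 (0.409 without the limit), and Ier5, an immediate early gene, 0.410 (0.512). In Pdgfra+ cells the ratios were 0.608 for Hspa1a, 0.806 for Hspa1b, 0.483 for Ahsa1 and 0.560 for Ier5. In the same order they were 0.701, 1.03, 0.664 and 0.618 in mural cells that failed only the contractile threshold. Pecam1+ cells had 1.13, 1.00, 0.551 and 0.967.

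Slc15a2 had the lowest ratio of the 12. S100a4, a calcium-binding protein, had 492 and 207 CPM, a ratio of 0.421 (0.384 to 0.463) and 0.533 without the limit. It had 1.16 under a stricter filter (more genes and UMIs per cell and a mitochondrial limit of 5%). That filter left at most 19 control members, so its ratios rest on few cells. Slc15a2, a peptide transporter, had 42 UMIs in control and 11 in iAdFASNKO members, which is a ratio of 0.169 (0.0784 to 0.334) and 0.216 without the limit. Slco2a1, a prostaglandin transporter, had 0.322 (0.577), Phlda1 0.407 (0.556) and Lin7a, a scaffold protein, 0.287 (0.523). Vtn, vitronectin, had 48.7 and 15 CPM, a ratio of 0.308, and 0.531 without the limit. Enpp2 had 174 and 65.3 CPM, a ratio of 0.376, and 0.675 without it. Fst had 95.6 and 40.8 CPM, a ratio of 0.427, and 0.799 without it, so Enpp2 and Fst were past the rule only with the limit.

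The contractile apparatus was at nearly the same level in members of both genotypes, which the rule chose in part by these genes. Of the 26 listed genes, all measured, 0 were higher and 2 lower, against 2.11% and 7.08% of all genes. The median log2 ratio was 0.10 against -0.09 over all genes. The summed level of the list was 68099 CPM in control and 70985 in iAdFASNKO members. Acta2, Myh11, Tagln, Des, Cnn1, Actg2 and Synpo2 are also genes of the rule. Myh11 had 6096 and 7365 CPM, a ratio of 1.21 (1.18 to 1.23), and Acta2 14135 and 12186 CPM, a ratio of 0.862 (0.850 to 0.875). Tagln, transgelin, had a ratio of 1.10, Mylk, the light chain kinase, 1.06, and Tpm1, tropomyosin 1, which lies along the actin filament, 1.44 (1.41 to 1.48). Tpm2 had 0.764 (0.746 to 0.783).

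The 2 lower genes of the list were past the rule only with the limit. Des, desmin, the intermediate filament of muscle, had 784 and 480.2 CPM, a ratio of 0.612 (0.573 to 0.654). Without the limit Des had 0.671 (0.635 to 0.709), still lower but just short of the rule. Actg2 had 166 and 101 CPM, a ratio of 0.610 (0.527 to 0.705), and 0.821 without it. Without the limit no gene of the list was past the rule and the median was 0.05. With a limit of 5% and deeper cells, which left at most 19 control members, the median was -0.21.

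Contractile transcripts were also measured in other cells of the same libraries. In Pdgfra+ cells, 16 of 25 measured genes of the list were higher in the iAdFASNKO library and 0 lower, with a median log2 ratio of 1.02 (all genes 0.04, with 9.44% higher and 5.88% lower). Acta2 had a ratio of 2.69 there, Myh11 2.81, Tagln 3.74 and Des 3.74. The rise was not particular to Pdgfra+ cells. Pecam1+ cells had ratios of 2.39 for Acta2, 3.19 for Myh11, 3.19 for Tagln and 2.19 for Des. Mural cells that failed only the contractile threshold gave 21 higher and 0 lower of 24 measured genes, with a median of 1.27 (all genes -0.04). The rule chose that class for having under 2 of the 4 contractile genes, at median depths of 5686 UMIs in control and 3228.5 in iAdFASNKO. Choice and depth enter its ratios, so they are only a description. Acta2 was found in 6.10% of control and 7.97% of iAdFASNKO Pdgfra+ cells after thinning. The part of free RNA in these ratios was not tested.

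Of 20 calcium and channel genes 0 were higher and 2 lower, near the share over all genes (2.11% higher and 7.08% lower), with a median log2 ratio of -0.07. Atp2a2, the pump that refills the sarcoplasmic reticulum, had 602 and 638 CPM, a ratio of 1.06 (0.991 to 1.13), and Itpr1, the receptor that releases calcium from it, 385 and 416 CPM, a ratio of 1.08 (0.995 to 1.18). Cacna1c, the L-type calcium channel, had a ratio of 0.946 (0.804 to 1.11) and Pln, phospholamban, which restrains the pump, 1.14 (1.05 to 1.24). The lower genes were Kcnj8, the pore of the vascular ATP-sensitive potassium channel, at 0.330 (43 and 22 UMIs), and Trpc6, a receptor-operated cation channel, at 0.625. Without the limit they had 0.563 and 0.758, the latter not past the rule.

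Receptors for vasoactive signals and their cyclic nucleotide partners gave 0 higher and 1 lower of 21 measured genes (2.11% and 7.08% of all genes). The median was -0.06. Npy1r, the receptor through which neuropeptide Y constricts vessels, had 545 and 626 CPM, a ratio of 1.15 (1.07 to 1.23). Gucy1a1, a subunit of the nitric oxide receptor, had 1052 and 1137 CPM, a ratio of 1.08. P2rx1, an ATP-gated channel, had a ratio of 0.997 (0.895 to 1.11), and Adra1a, an adrenergic receptor, 1.45 (1.08 to 1.95) on 69 and 155 UMIs. Ednrb, the endothelin B receptor, was the lower gene at 0.610 (0.503 to 0.740), with 96.5 and 58.9 CPM. Its direction depended on the cells: the ratio was 0.795 without the limit, 1.24 with the rule on thinned cells and 2.65 under the stricter filter. The last value rests on at most 19 control members.

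Of 20 transcription regulators, 0 were higher and 3 lower, against 2.11% and 7.08% of all genes. The median was -0.26 (all genes -0.09). Myocd, myocardin, had 126 and 116 CPM, a ratio of 0.925 (0.795 to 1.08), and Srf, serum response factor, 71.1 and 72.5 CPM, a ratio of 1.02 (0.836 to 1.25). Mef2c had a ratio of 1.14. Klf2, a flow-responsive factor best known from endothelium, was lower at 0.583 (0.504 without the limit). Under the stricter filter, on at most 19 control members, it had 1.82. Id4, an inhibitor of helix-loop-helix factors, was lower at 0.548 and Gata6 at 0.484 (24 and 18 UMIs), but neither was past the rule without the limit (0.686 and 0.754).

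Notch signalling between endothelium and mural cells keeps smooth muscle differentiated. Its list gave 0 higher and 1 lower of 11 measured genes (2.11% and 7.08% of all genes), with a median of 0.02. Notch3, the mural receptor, had 902 and 862 CPM, a ratio of 0.956 (0.905 to 1.01), Jag1, a ligand, 1.06 (0.939 to 1.21), and the targets Heyl and Hes1 1.07 and 1.01. Hey1, another target, was lower at 0.305 (0.122 to 0.708) on 19 and 9 UMIs, and at 0.361 without the limit.

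Calls in the matrix lists were also near the 9.19% of all genes. Of 18 basement membrane and elastic genes, 1 was higher and 1 lower, with a median of -0.03. Eln, elastin, had 250 and 404 CPM, a ratio of 1.62 (1.47 to 1.78), which was 1.35 without the limit and then not past the rule. In Pdgfra+ cells its ratio was 1.68. Nid2, nidogen 2, was lower at 0.347 on 13 and 7 UMIs, and at 0.397 without the limit. Of 15 fibrillar collagen and modulated smooth muscle genes, 1 was higher and 1 lower, with a median of -0.04 that was 0.32 without the limit. Mgp had 87.0 and 171 CPM, a ratio of 1.97 (1.67 to 2.32), and 3.22 without the limit. Lgals3, galectin 3, was lower at 0.499 (0.554 without the limit). Under the stricter filter, on at most 19 control members, it had 1.29.

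**Figure D4:**
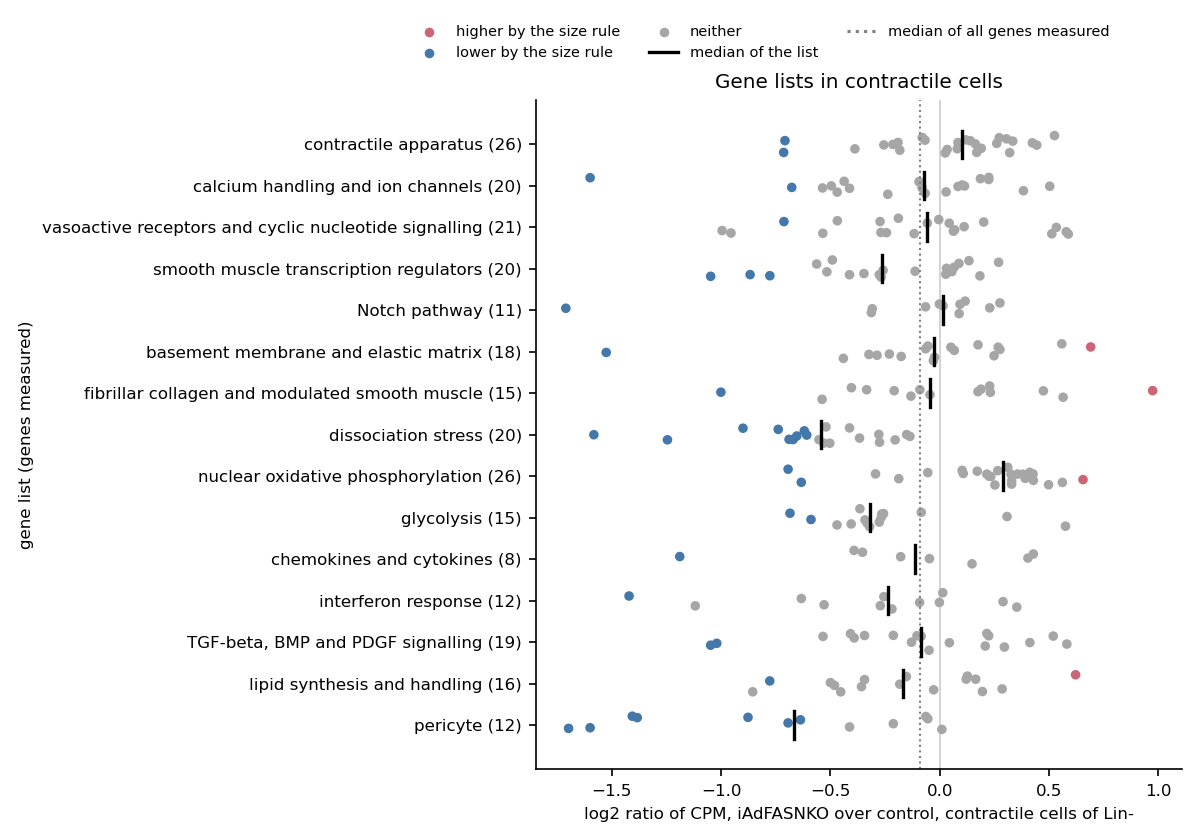
Log2 ratio, iAdFASNKO over control, of each measured gene of the lists in contractile cells (points, x axis), colored where past the size rule, with each list's median (black bar) and the median of all genes (dotted line). The dissociation stress list has a median of -0.54 and the pericyte list -0.67, while the contractile list lies at 0.10.

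Dissociation stress genes, which rise while tissue is digested, were lower in the iAdFASNKO members. Of 20 genes 0 were higher and 9 lower, against 7.08% lower over all genes, with a median of -0.54. The 9 were Fos, Jund, Btg2, Hspa1a, Hspa1b, Hspa8, Hsp90aa1, Hspb1 and Dnajb1. Fos had 3392 and 2156 CPM, a ratio of 0.636 (0.648 without the limit). Without the limit 8 were lower, with a median of -0.56. In Pdgfra+ cells of the same libraries 9 of 20 were lower too (5.88% of all genes there), with a median of -0.56. Mural cells that failed only the contractile threshold went the other way. There 9 of 20 were higher and 0 lower, with a median of 0.48 (all genes -0.04). The control side of that class is weak: 1 of its 53 cells held 82710 of 483605 UMIs. The difference was thus met in members and Pdgfra+ cells but not in this weakly measured class, and its cause was not tested.

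Energy genes gave list medians of both signs. The 26 nuclear genes of oxidative phosphorylation had a median of 0.29, with 1 higher and 2 lower (2.11% and 7.08% of all genes). Cycs, cytochrome c, was higher at 1.58 (1.42 without the limit, not past the rule). Ndufa4l2, a hypoxia-induced protein that lowers complex I activity, was lower at 0.618 (0.677 without the limit, not past the rule) and Sdhd, a subunit of succinate dehydrogenase, at 0.645 (0.641). The 15 glycolysis genes had a median of -0.32, with 0 higher and 2 lower, Eno1 at 0.622 (0.601 without the limit) and Ldha at 0.665 (0.701 without the limit, not past the rule).

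Lipid genes bear on the targeted enzyme, although the knockout is directed at adipocytes. Fasn had 30 UMIs in control and 41 in iAdFASNKO members, 12.9 and 11.4 CPM, a ratio of 0.881 (0.537 to 1.46), so a difference was not detectable at this depth. Fabp4, the fatty acid carrier of adipocytes and capillary endothelium, had 2502 and 3852 CPM, a ratio of 1.54 (1.49 to 1.59), 1.61 without the limit and 1.78 in Pdgfra+ cells. Plin2, a droplet coat protein, was lower at 0.583, and at 0.701 without the limit, where it was not past the rule. Of 16 lipid genes 1 was higher and 1 lower (2.11% and 7.08% of all genes), with a median of -0.17.

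The calls in signalling and immune lists were lower, as were most calls over all genes (7.08% lower against 2.11% higher). Eng and Acvrl1, partners in BMP9 and BMP10 reception, were lower at 0.484 and 0.493 among 19 measured genes of TGF-beta, BMP and PDGF signalling (median -0.08), and had 0.680 (not past the rule) and 0.5 without the limit. Ccl11, eotaxin, was the 1 lower gene of 8 chemokines and cytokines at 0.438 on 50 and 34 UMIs (median -0.11), and was not past the rule without the limit (0.675). Ifi27l2a was the 1 lower gene of 12 interferon response genes at 0.373 (median -0.24), and had 0.623 without the limit.

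Several pericyte genes were lower in the iAdFASNKO members. Of 12 listed genes 0 were higher and 7 lower, against 7.08% lower over all genes, with a median of -0.67. Rgs5 had 418 CPM (392 to 445) in control and 160 (147 to 174) in iAdFASNKO members, which is a ratio of 0.383 (0.345 to 0.425). The control value leaned on 1 cell, which held 266 of the 971 UMIs, against 34 of 577 in the top iAdFASNKO cell. Kcnj8, Vtn, Ndufa4l2, Steap4, Anpep and Postn were the other lower genes. Higd1b had a ratio of 1.01, Cspg4, the proteoglycan NG2, 0.957, and Pdgfrb, the PDGF receptor of mural cells, 0.863. Rgs5, Kcnj8, Higd1b and Cspg4 are also genes of the rule. Mural cells that failed only the contractile threshold went the other way. There 6 of 10 measured genes were higher and 0 lower, with a median of 0.87 (all genes -0.04). The rule also chose that class, and 1 of its 53 control cells held 82710 of 483605 UMIs, so this is a description. Pdgfra+ cells gave 2 higher and 3 lower of 12. The Rgs5 ratio was 2.39 (1.87 to 3.08) in those mural cells, 0.998 in Pdgfra+ cells and 18.1 in Pecam1+ cells.

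The ratios in members followed the choice of cells. Without the mitochondrial limit 3 of the 12 were lower, against 4.53% of all genes, and the median was -0.32. Rgs5 then had a ratio of 0.694, and with the rule on thinned cells it had 1.03. Without cells that held 2 markers of 1 of the 6 other types it had 0.902. Postn, periostin, had 0.643 with the limit and 1.02 without it.

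A cut on thinned cells, set after the values were seen, shows where the Rgs5 UMIs lay. Members with at least 3 Rgs5 UMIs of 2000 were 20 of 267 in control (7.49%, 4.64 to 11.3) and 33 of 705 in iAdFASNKO (4.68%, 3.24 to 6.51). They held 87.3% and 81.8% of all thinned Rgs5 UMIs. Their mean Acta2 count per 2000 UMIs was 12.4 in control, against 28.5 in the other members, and 10.2 against 23.4 in iAdFASNKO. Abcc9, the regulatory subunit that pairs with Kcnj8, had 0.8 against 0.089 in control and 0.394 against 0.085 in iAdFASNKO, and Cnn1 0.1 against 0.623 and 0 against 0.71.

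Members with and without Cnn1 were compared in each library. Cnn1 is a gene of the rule and the split was made after seeing the data, so this is a description of how members vary. After thinning, 77 of 267 control and 268 of 705 iAdFASNKO members held a Cnn1 UMI. Their original median depth was 9737 against 7797.5 UMIs in control and 5299 against 4328 in iAdFASNKO. Of 3952 genes measured in both libraries, 150 were higher and 146 lower with Cnn1 in control, and 134 and 172 in iAdFASNKO. Calls shared by both libraries were fewer, 46 higher (1.16%) and 32 lower (0.81%).

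Of the 26 contractile genes 4, Cnn1 itself among them, were higher in both libraries in the cells with Cnn1, and 0 lower. Actg2 was 429 CPM with Cnn1 and 23.7 without it in control, a ratio of 18.1 (8.98 to 41.3), and 11.8 (6.44 to 23.8) in iAdFASNKO. Smtn, smoothelin, a marker of contractile smooth muscle, had ratios of 2.41 and 2.15. Ppp1r14a, an inhibitor of myosin phosphatase, had 1.73 and 1.66. Myh11 (1.30 and 1.31) and Acta2 (1.35 and 1.38) were not past the rule. Shared higher calls outside that list included Actc1, cardiac actin, at 17.9 and 3.16. Aebp1, a collagen-binding protein, had 16.5 and 6.00, Ogn, the proteoglycan osteoglycin, 4.94 and 3.1, Fst 17.3 and 5.34, Enpp2 10.5 and 3.26, Pcdh7, a protocadherin, 8.77 and 7.61, and H2-M9 7.07 and 10.1.

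Of 9 measured pericyte genes 3, Rgs5, Ndufa4l2 and Cox4i2, were lower in both libraries in the cells with Cnn1, and 0 higher in both. Rgs5 had ratios of 0.129 and 0.0851, and Ndufa4l2 0.473 and 0.519. Cspg4 (0.837 and 0.882) and Higd1b (0.867 and 1.19) were not called, and Abcc9 went the other way, at 1.44 and 2.05, called in iAdFASNKO. Among other genes lower in both were Ednrb at 0.170 and 0.230, Fabp4 at 0.406 and 0.523, and Mgp at 0.252 and 0.489. Fst and Enpp2 were thus higher with Cnn1 and lower above the mitochondrial limit, while Rgs5 and Mgp were lower in both comparisons.

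**Figure D5:**
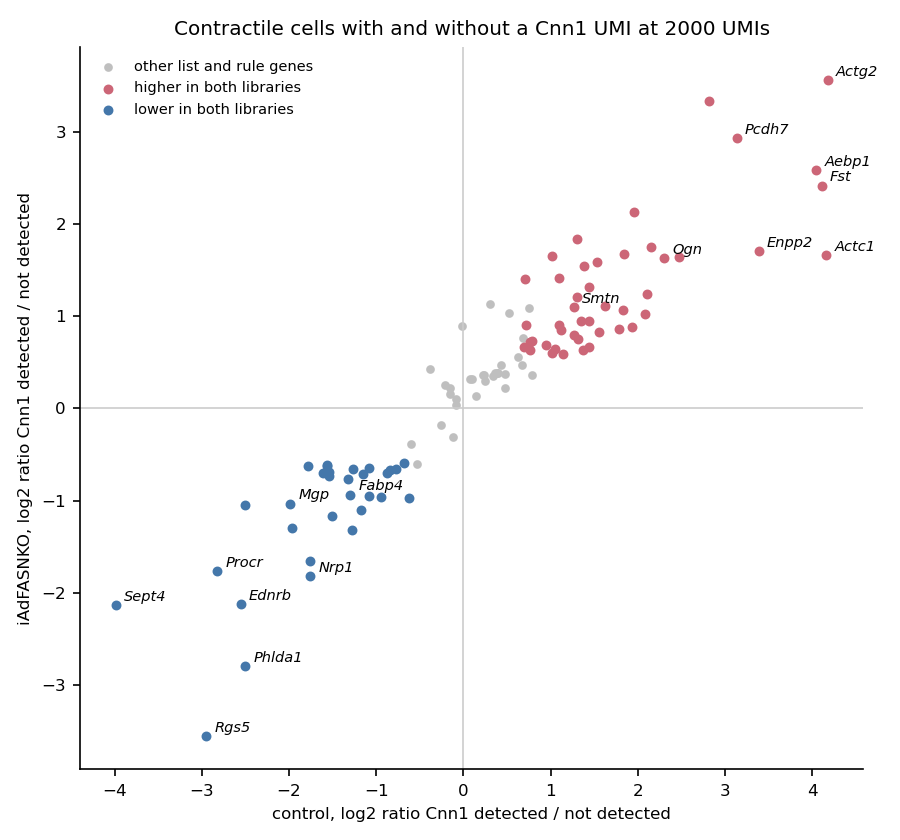
Log2 CPM ratio of contractile cells with a Cnn1 UMI over those without it, after thinning to 2000 UMIs, control on the x axis and iAdFASNKO on the y axis, 1 point per gene. Actg2, Fst and Aebp1 lie high and Rgs5 and Ednrb low in both libraries.

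Mural cells that failed only the contractile threshold were the cells most like the members, 53 in control and 164 in iAdFASNKO. Since the rule chose both classes, their differences are a description. Of 8972 genes measured in both libraries, 181 (2.02%) were higher and 273 (3.04%) lower in members in both, together 5.06%. Ppp1r14a had 927 CPM in members and 132 in other mural cells of the control library, and 1158 and 481 in iAdFASNKO, ratios of 7.00 and 2.41. Tpm2 had ratios of 5.03 and 2.41, and Smtn 3.83 and 3.11.

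Other genes above the other mural cells had various roles. Kcnh2, a potassium channel best known from the heart, had ratios of 14.4 (2.50 to 576) and 6.68 (2.23 to 32.8), the former on few UMIs. Tgfb3, a transforming growth factor, had 3.30 and 2.72, Nkd1, an inhibitor of Wnt signalling, 3.84 and 3.40, and Sorbs2, an adaptor of actin fibres, 4.61 and 2.19. Sh3bgr (8.47 and 5.05) and Fbxl22 (7.54 and 2.98) followed. Actc1 had 48.7 CPM in control members with 0 UMIs in the other mural cells, and a ratio of 23.3 (4.12 to 927) in iAdFASNKO.

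Genes under the other mural cells included Cygb, the oxygen-binding globin cytoglobin, at 0.194 and 0.226, and Nrp1, a coreceptor for VEGF and semaphorins, at 0.354 and 0.302. Timp3, a metalloproteinase inhibitor, had 998 CPM in members and 1758 in the others of the control library, and 937 and 1968 in iAdFASNKO, ratios of 0.568 and 0.476. Mgst1 (0.193 and 0.334) and Gstm5 (0.232 and 0.398) are glutathione transferases, and Npc2 (0.265 and 0.404) a lysosomal cholesterol carrier. Tmsb10, which binds actin monomers, had 0.429 and 0.254. The control side is weak, because 1 of the 53 cells held 82710 of 483605 UMIs, and Epcam was found in 7.55% of the 53 cells.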

How the data were processed

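Single-cell 3' libraries (10x Genomics) were made by the authors from pooled stromal vascular cells. The deposited matrices hold raw UMI counts, per the file headers and the values, whole numbers per gene and barcode. The submitters' processing notes list Cell Ranger 3.1.0, Seurat 3.0 and mm10, and the matrix header gives software version 3.0.2. Fraction was read from the barcode tag that the labels state, and genotype from the matrix name. If that name were wrong, all genotype directions would turn. All 31053 features were read, 30934 with GENCODE M21 coordinates, and 0 columns were left unmapped.

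Members, gene lists and tests were chosen with earlier results of these data known. UMIs were summed over the members of a library and given as CPM with exact Poisson intervals. Ratios carry exact conditional binomial intervals and shares Clopper-Pearson intervals, all of 95%. With 1 library per group there is no replicate spread and no test. Total UMIs in the Lin- libraries were 33016494 in control and 22557680 in iAdFASNKO. Scrublet ran through scanpy 1.11.5 at an expected doublet rate of 0.06; doublets were counted, and removed only in an alternative. It marks under 1% of members, so doublets may remain.

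Named genes were the 12 per direction between genotypes, and 10 against other mural cells, whose interval bound lay farthest from 1. They needed at least 50 UMIs and under 20% of them in 1 cell. Predicted, mitochondrial and sex-linked genes were left out. Sums and calls were tested on simulated data. Limits of 15% and of no mitochondrial UMIs, the comparison across the 10% limit, and the Cnn1 and Rgs5 splits were added after seeing the data. Software was numpy 2.4.6, scipy 1.17.1 and pandas 2.3.3.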

Additional observations from a re-analysis of the deposited data

Results flagged for a closer look

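Des and Esam differed in direction between contractile cells and Pdgfra+ progenitors of the same Lin- libraries. Des had a log2 ratio, iAdFASNKO over control, of -0.71 in contractile cells and 1.90 in Pdgfra+ cells. Esam, an adhesion molecule of endothelium and platelets, had -0.59 and 1.07. Each cell kind is 1 library per genotype, so the difference between them was not tested. Des was found in 4.76% of control and 14.3% of iAdFASNKO Pdgfra+ cells, and Esam in 0.432% of control Pdgfra+ cells after thinning.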

How the results depend on the processing

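No paired analysis was possible because each genotype and fraction is 1 library, and for the same reason no replicate could be left out. The ratio of the shares of contractile cells was 1.94. It was 5.59 under the stricter filter (more genes and UMIs per cell, 5% mitochondrial), 1.15 under the looser one (20%), 2.72 with the rule on thinned cells, 2.23 without cells holding 2 markers of another type, and 1.21 and 1.15 at limits of 15% and none, the last pair chosen after seeing the data. Genes higher in iAdFASNKO numbered 364 with ratios centred on the median gene and 106 with at least 100 UMIs, and genes lower 278 under the stricter filter and 393 with at least 100 UMIs. Against other mural cells, genes higher in both libraries numbered 117 under the stricter filter, 357 with at least 1 of the 4 contractile genes, 99 with the rule on thinned cells, 55 without cells of 2 other-type markers and 279 without the top cell of each gene. Genes lower in both numbered 57, 149, 123 and 121 under the stricter filter, without cells of 2 other-type markers, with at least 100 UMIs and without the top cell. The contractile list's median was -0.21 under the stricter filter, 0.018 with the rule on thinned cells and 0.19 with centred ratios.

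Single genes turned direction as follows. Under the stricter filter S100a4 was 1.16, Ednrb 2.65, Klf2 1.82, Lgals3 1.29 and Steap4 1.11. These rest on few control cells, since a limit of 5% alone left 19 control and 133 iAdFASNKO members. With the rule on thinned cells Rgs5 was 1.03 and Ednrb 1.24. Postn was 1.01 under the looser filter and 1.02 without a limit. Of 43 called genes followed, 28 kept direction and call without the mitochondrial limit, 20 under the stricter filter and 43 without Scrublet doublets. The cause of these shifts was not tested.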

Other observations

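Some barcodes carried both gene sets of the rule and were left out by at least 1 excluding gene. They numbered 36 in the Lin- control library, with a median of 11087.5 UMIs, and 129 in the Lin- iAdFASNKO library, with 6742. Pdgfra was found in 22 and 58 of them and Pecam1 in 15 and 73, some with more than 1 such gene, and Scrublet marked 10 and 42 of those with Pdgfra. The Lin+ libraries held 8 members in control and 9 in iAdFASNKO, and 20 and 21 without a mitochondrial limit. Their numbers are too small to compare genes.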
